A study of Mus musculus with 28 samples.

Results

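The genes described here make, package, recycle, break down and sense acetylcholine in the mouse striatum: Chat, Slc18a3, Slc5a7, Lhx8, Ache, Chrm1, Chrm2, Chrm3 and Chrm4. They were taken by symbol, and all 9 were found among the 23309 gene symbols of the deposited tables. Of these, 8 reached a mean of at least 1 FPKM (fragments per kilobase of transcript, relative to the mapped fragments of the library) and so belong to the 12760 genes tested. Chrm2, at a mean of 0.653 FPKM, did not, and its tests come from a fit with no minimum over 19239 genes.

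The striatum has few cholinergic neurons, yet they branch widely and are its main source of acetylcholine. Chat makes acetylcholine from choline and acetyl-CoA, the vesicular transporter encoded by Slc18a3 loads it into vesicles, acetylcholinesterase (Ache) splits it in the extracellular space, and the high-affinity transporter encoded by Slc5a7 takes the choline back up. Muscarinic receptors sense it: M1 and M3 couple to Gq, M2 and M4 couple to Gi, M1 and M4 are the abundant forms on spiny projection neurons, and M2 and M4 also act as autoreceptors of cholinergic neurons. Those neurons carry dopamine D2 receptors, a target of haloperidol, and muscarinic antagonists are used against the motor side effects of that drug.

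RNA was measured in striatum of 28 C57BL/6J mice, 16 given haloperidol, an antipsychotic that blocks D2 receptors, and 12 given placebo. The series title calls the treatment chronic, and the sources used here do not state its dose or duration, or the age and sex of the mice. The labels place 8 haloperidol and 8 placebo mice in batch 1, and 8 haloperidol and 4 placebo mice in batch 2. Each library is 1 mouse, and every mouse is of the same inbred strain with no genetic change named.

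The tissue is bulk striatum. The summed level of 10 spiny projection neuron markers had a median of 2918 scaled FPKM in haloperidol libraries and 2415 in placebo libraries, against 453 and 477 for 8 markers of cortical excitatory neurons. A marker set of choroid plexus ranged from 21.6 to 9370 over the libraries. Besides the members, the cholinergic neuron gene Isl1 was present at a low level, 4.0 scaled FPKM over all libraries. Basal forebrain cholinergic neurons share several of the members, so which cholinergic cells gave the RNA cannot be told apart here. The sum of all FPKM in a library ranged from 380952 to 575171 and the depth relative to the mean library from 0.405 to 1.62. Read counts are not part of the files used here, so absolute depth is unknown.

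In the mm9 coordinates of the deposited tables, Slc18a3 (NM_021712, chr14:33275623-33278036, minus strand, 1 exon) lies inside intron 1 of Chat (NM_009891, chr14:33221389-33279095, minus strand, 16 exons). That intron is 4893 bases long, and the genes share 0 exon bases, so their deposited exons are separate sequence. Reads of unspliced Chat RNA from that intron could fall on the Slc18a3 exon, and cannot be told apart here. The other members stand alone on their strands: Slc5a7 (NM_022025, chr17:54412915-54438359, minus, 9 exons), Lhx8 (NM_010713, chr3:153969258-153993524, minus, 9 exons), Ache (NM_009599, chr5:137729505-137735691, plus, 5 exons), Chrm1 (NM_007698 and NM_001112697, chr19:8738495-8758092, plus) and Chrm3 (NM_033269, chr13:9875859-10360049, minus, 5 exons). Chrm2 (NM_203491, chr6:36338084-36474774, plus, 3 exons) shares 79 exon bases with 9330158H04Rik on the opposite strand, and Chrm4 (NM_007699, chr2:91762346-91769986, plus, 2 exons) shares 8 with Mdk. The sources used here do not state if the quantification used strand, and reads from those shared bases cannot be assigned with certainty.

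**Figure D1:**
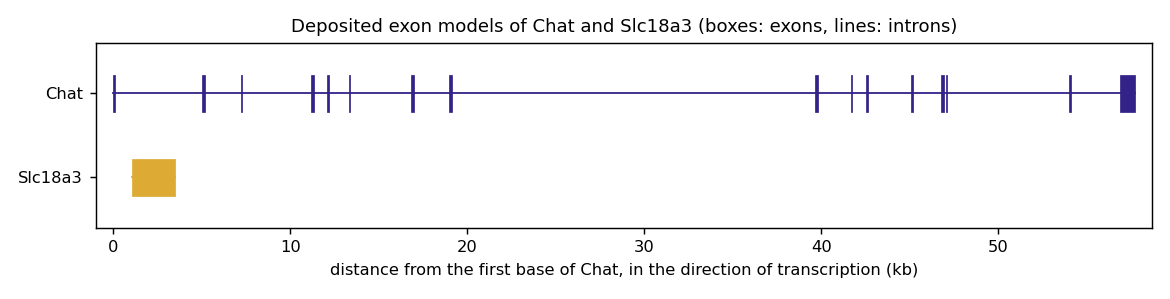
The deposited exon models of Chat and Slc18a3 along the distance from the first base of Chat, in kilobases, in the direction of transcription. The single exon of Slc18a3 runs from 1059 to 3472 bases and sits between exon 1 of Chat and exon 2, which begins at 4996 bases.

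The upstream sequences of 4 genes are shown. Chat and Slc18a3 share a locus and had Pearson's r = 0.03 over mice, or 0.44 with the library's FPKM sum subtracted. Chat and Slc5a7 sit on different chromosomes and had r = 0.89, or 0.52 with that sum subtracted. Ache had the smallest p-value of the members under haloperidol. A link of upstream sequence to these values was not tested. Each is the 250 bases before the RefSeq start site, from GRCm38.p6, and capitals mark GC boxes (GGGCGG on either strand). The windows are chr14:32465910-32466159 (minus) for Chat, chr14:32464851-32465100 (minus) for Slc18a3, chr17:54299035-54299284 (minus) for Slc5a7 and chr5:137288004-137288253 (plus) for Ache.
Chat: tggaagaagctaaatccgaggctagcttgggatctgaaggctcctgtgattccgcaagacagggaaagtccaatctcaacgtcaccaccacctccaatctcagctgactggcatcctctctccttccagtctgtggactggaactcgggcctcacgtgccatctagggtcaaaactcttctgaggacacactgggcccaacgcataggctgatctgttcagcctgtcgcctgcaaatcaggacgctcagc
Slc18a3: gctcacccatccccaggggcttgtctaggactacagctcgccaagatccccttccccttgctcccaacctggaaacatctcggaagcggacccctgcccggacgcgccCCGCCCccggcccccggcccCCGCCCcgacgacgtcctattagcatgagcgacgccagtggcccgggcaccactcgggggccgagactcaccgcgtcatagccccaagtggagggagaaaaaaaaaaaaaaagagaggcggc
Slc5a7: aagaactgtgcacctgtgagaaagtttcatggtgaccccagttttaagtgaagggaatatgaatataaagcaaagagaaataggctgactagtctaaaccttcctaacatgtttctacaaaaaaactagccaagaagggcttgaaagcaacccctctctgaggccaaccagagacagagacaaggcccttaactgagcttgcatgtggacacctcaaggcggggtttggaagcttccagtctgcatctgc
Ache: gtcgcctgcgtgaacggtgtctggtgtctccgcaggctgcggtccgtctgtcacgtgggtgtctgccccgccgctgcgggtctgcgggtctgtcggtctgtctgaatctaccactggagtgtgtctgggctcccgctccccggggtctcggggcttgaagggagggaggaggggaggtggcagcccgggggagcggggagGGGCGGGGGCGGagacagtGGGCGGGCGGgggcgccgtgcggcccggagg
The window of Slc18a3 held 2 GC boxes and that of Ache held 4, made up of pairs that overlap or abut, while those of Chat and Slc5a7 held 0. Base composition went the same way, with 73.6% G and C for Ache, 66% for Slc18a3, 54.8% for Chat and 45.6% for Slc5a7. Over 300-base windows that add the first 50 transcribed bases, 8 of the 9 members had an entry. In these, GC boxes numbered 4 in Chrm4 and 1 in Chrm2, and 0 in Lhx8 and Chrm3. A GC box was present in 35.7% of all 32851 promoters of that length. The homeodomain core TAATTA (5.29% of promoters, both strands) and the cAMP response element TGACGTCA (1.79%, both strands) had 0 matches in the 8 windows. These are letter matches only.

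FPKM are per length, so values can be set side by side between genes, here as scaled FPKM (divided by a median-of-ratios factor for each library). The order is one of FPKM and rests on the transcript models. For Chrm4 the deposited model has 2768 exon bases, and the matched GENCODE transcript has 1440. For NM_007698 of Chrm1 these are 6194 and 4159. Ache was the highest at 35.6 ± 5.67 (SD, n = 28), followed by Chrm4 at 31.98 ± 5.15 and Chrm1 at 29.9 ± 4.75. Chrm3, at 4.99 ± 3.04, led a low group with Lhx8 at 3.11 ± 0.846, Slc18a3 at 3.05 ± 0.823, Chat at 2.74 ± 1.37 and Slc5a7 at 2.65 ± 1.35. Chrm2 was last at 0.640 ± 0.674. Neighbours in this order were compared within each library by a 2-sided sign-flip permutation test with adjustment over 8 neighbour pairs. The test asks if the mean within-library log2 ratio of 2 neighbours differs from 0, and not in how many libraries the order holds. It cannot see a bias of GC content or length that all libraries share. Ache was above Chrm4 in 21 of 28 libraries (adjusted p = 0.00219), Chrm4 above Chrm1 in 21 (adjusted p = 0.0224), and Chrm1 above Chrm3 in all 28, a mean log2 ratio of 2.69 (adjusted p = 4e-05, from the smallest p that 100000 permutations can give). Slc5a7 was above Chrm2 in all 28 libraries too, with the same adjusted p. In the low group no neighbour pair passed. Chrm3 was above Lhx8 in 21 of 28 libraries too, at a mean log2 ratio of 0.40 ± 0.97 (SD, adjusted p = 0.0589). Lhx8 over Slc18a3 (adjusted p = 0.765), Slc18a3 over Chat (0.152) and Chat over Slc5a7 (0.527) did not pass either. The order of Lhx8, the LIM homeodomain factor needed for the cholinergic fate, and the 3 genes of the cholinergic terminal was thus not resolved.

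The uncertainty of single values differed between members. The half-width of the interval that Cufflinks gives around an FPKM had a median of 26.4% of the value for Chat and for Slc18a3, 29.3% for Lhx8, 18.1% for Slc5a7, 20.03% for Chrm3 and 58.3% for Chrm2, against 9.61% for Ache and 8.91% for Chrm4. Over libraries it ran from 18.5% to 69.3% for Chat and from 20.8% to 37.4% for Slc18a3. With treatment and batch subtracted, the residual SD on the log2 scale was 0.69 for Chat, 0.69 for Slc5a7 and 0.76 for Chrm3, which lie at percentiles 96.7, 96.7 and 97.6 of all genes tested. It was 0.29 for Slc18a3 and 0.34 for Lhx8, at percentiles 55.4 and 67.1, and between 0.18 and 0.23 for Ache, Chrm1 and Chrm4, where the median gene had 0.27. With the library's FPKM sum also subtracted that contrast was gone. The percentiles were then 95.3 for Chat, 93.8 for Lhx8, 90.5 for Slc18a3, 88.7 for Slc5a7 and 88.2 for Chrm3. Those of Chrm4, Ache and Chrm1 were 76.9, 63.4 and 40.5.

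**Figure D2:**
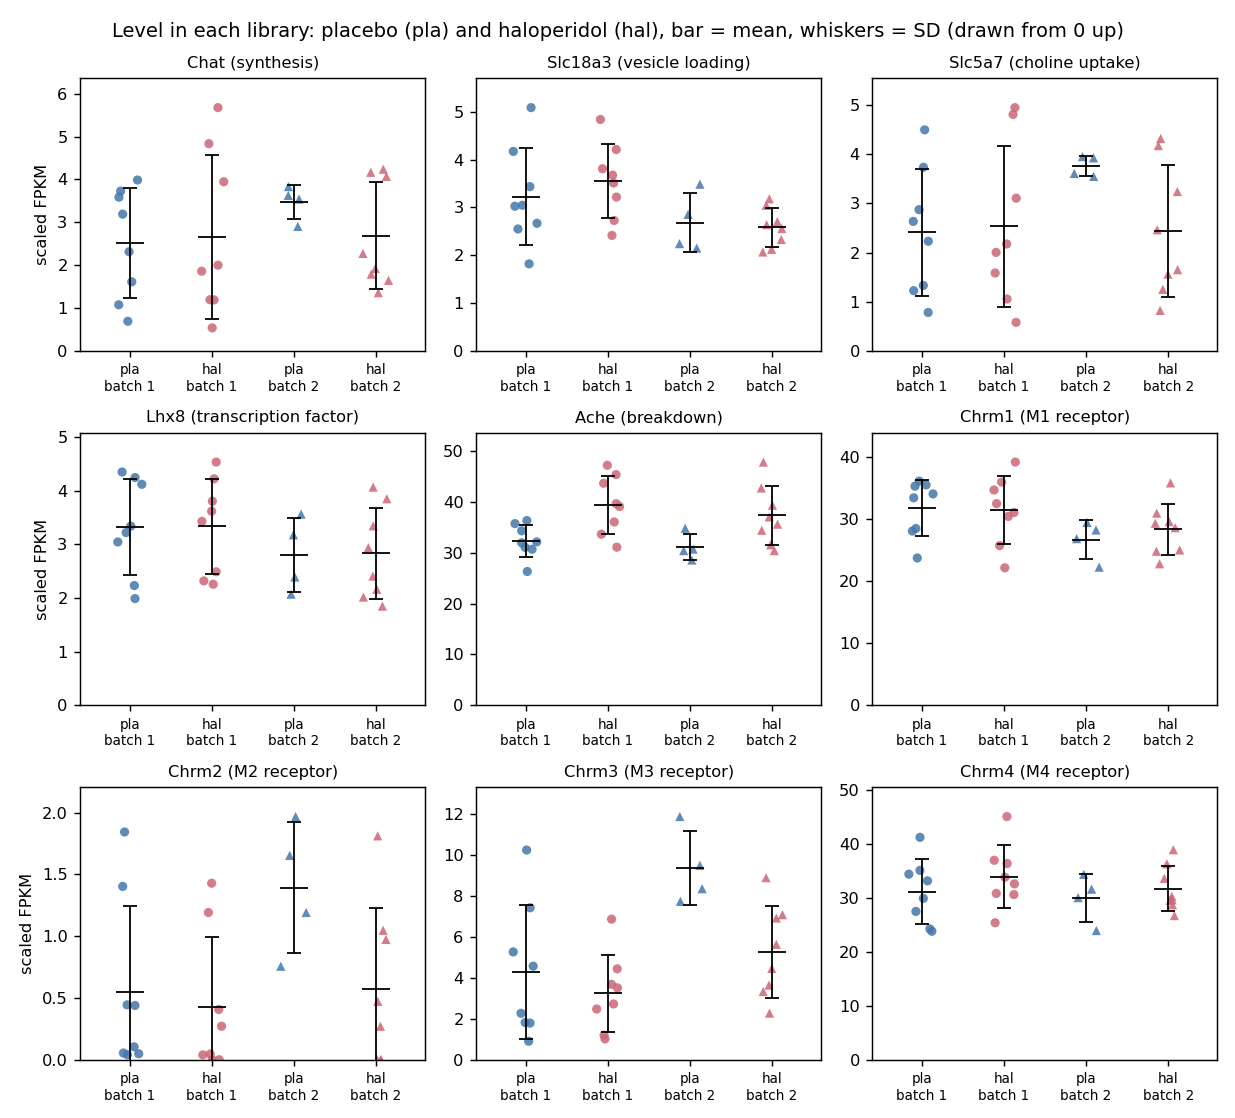
Scaled FPKM of each gene in every library, split by treatment and batch. Points are mice, bars are means and whiskers are SDs. Chat spans 0.535 to 5.68 while its locus partner Slc18a3 spans 1.82 to 5.09, and 14 of 16 haloperidol mice lie above their batch's placebo mean for Ache.

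Haloperidol was compared with placebo with limma, in a model with treatment and batch, and in a second one that adds log2 of the library's FPKM sum. None of the 9 members passed an adjusted p of 0.05 in either model, with 1 member (Ache) at an unadjusted p under 0.05 in both. The background was nearly as empty, with 0.00784% of 12760 genes called in the first model (803 at an unadjusted p under 0.05) and 0.0549% in the second (985). In the fit with no minimum, used for Chrm2, these shares were 0.00520% and 0.0312%. The FPKM sum had a median of 473024 in haloperidol and 432062 in placebo libraries, over ranges that overlapped. In a bulk sample, fewer cells of a type and less RNA per cell cannot be told apart.

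Chat, the synthetic enzyme, ranged from 0.535 to 5.68 scaled FPKM with a median of 1.96 under haloperidol and from 0.689 to 3.99 with a median of 3.37 under placebo. The groups overlapped: 5 haloperidol mice lay above the highest placebo mouse and 1 below the lowest. Its log2 fold change was -0.19 with a standard error of 0.26 (95% interval -0.71 to 0.33, adjusted p = 0.670), and 0.09 (-0.19 to 0.38, adjusted p = 0.896) with the FPKM sum in the model.

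Slc18a3, the vesicular transporter from the intron of Chat, ranged from 2.07 to 4.84 with a median of 2.88 under haloperidol and from 1.82 to 5.09 with a median of 2.94 under placebo. All haloperidol values lay inside the placebo range, with 8 mice above their batch's placebo mean and 8 below. Its log2 fold change was 0.07 (-0.16 to 0.30, adjusted p = 0.717) and 0.04 in the second model.

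Slc5a7, the choline transporter, ranged from 0.579 to 4.95 with a median of 2.09 under haloperidol and from 0.781 to 4.50 with a median of 3.21 under placebo. Of the haloperidol mice, 11 of 16 lay below their batch's placebo mean. Haloperidol differed from placebo by -0.27 on the log2 scale (-0.79 to 0.25, adjusted p = 0.579), and 0.04 (-0.18 to 0.25, adjusted p = 0.956) in the second model. Its estimate, like that of Chat, thus moved to the other side of 0 when the FPKM sum was added.

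Lhx8 ranged from 1.85 to 4.54 with a median of 3.14 under haloperidol and from 1.99 to 4.35 with a median of 3.20 under placebo. The means, 3.08 ± 0.878 (n = 16) and 3.15 ± 0.839 (n = 12), differed by less than the spread between mice. The estimated log2 fold change was 0.00 (-0.26 to 0.27) in the first model and 0.05 in the second.

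Ache ranged from 30.4 to 47.8 with a median of 38.0 under haloperidol and from 26.3 to 36.3 with a median of 31.5 under placebo. The groups overlapped, but 9 of 16 haloperidol mice lay above the highest placebo mouse and 14 of 16 above their own batch's placebo mean. The means were 38.4 ± 5.66 (n = 16) and 31.9 ± 2.96 (n = 12). The log2 fold change was 0.27 with a standard error of 0.07 (0.12 to 0.41), a 1.20-fold difference, at an unadjusted p of 0.000809 that ranked 19 among 12760 genes and did not pass adjustment (limma adjusted p = 0.504). In the second model it was 0.23 with a standard error of 0.06 (0.10 to 0.36, unadjusted p = 0.00126, adjusted p = 0.293). It was 0.28 in batch 1 alone and 0.25 in batch 2 alone in the first model, and 0.26 and 0.14 in the second. In batch 2 the placebo mice stood at 28.6, 30.4, 30.7 and 34.8, and 7 of 8 haloperidol mice lay above their mean. The estimate stayed above 0 under all 17 alternatives, between 0.18 and 0.30 in the first model, with adjusted p from 0.186 to 1, and in none did it pass. Cortical excitatory marker levels moved with Ache over mice (r = -0.50). With that level in the model, an alternative chosen after seeing the data, the estimate was 0.22 (adjusted p = 0.802).

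Chrm1, the M1 receptor, ranged from 22.1 to 39.1 with a median of 29.9 under haloperidol and from 22.2 to 36.0 with a median of 28.9 under placebo. On the log2 scale the difference was 0.02 (-0.15 to 0.19) in the first model and -0.07 (-0.17 to 0.04) in the second, the narrowest interval of the members. Its transcripts NM_007698 and NM_001112697 share their span, and the latter carried 33.6 ± 8.85% of the gene's FPKM under haloperidol and 30.2 ± 7.22% under placebo.

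Chrm4, the M4 receptor, ranged from 25.4 to 45.1 with a median of 31.7 under haloperidol and from 23.8 to 41.2 with a median of 30.9 under placebo. The log2 fold change was 0.11 (-0.07 to 0.29, adjusted p = 0.565) and 0.06 in the second model.

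Chrm3, the M3 receptor, ranged from 1.02 to 8.88 with a median of 3.66 under haloperidol and from 0.901 to 11.9 with a median of 6.34 under placebo. Of the haloperidol mice, 14 of 16 lay below their batch's placebo mean. In batch 2 the placebo mice stood at 7.73, 8.35, 9.49 and 11.9, and all 8 haloperidol mice, from 2.27 to 8.88, lay below the mean of these 4, though the groups overlapped. The log2 fold change was -0.47 with a standard error of 0.28 (-1.05 to 0.10, adjusted p = 0.565), which puts it at percentile 0.803 of all genes tested. In the second model it was -0.13 (-0.34 to 0.08, adjusted p = 0.786). Those 4 placebo libraries had FPKM sums from 383563 to 425954, against 380952 to 530595 in the haloperidol libraries of their batch.

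Chrm2, the M2 receptor, was listed at 0 in 5 haloperidol libraries and in no placebo library. Elsewhere it reached 1.81 scaled FPKM under haloperidol, with a median of 0.271 over all 16, and it ranged from 0.0403 to 1.97 with a median of 0.601 under placebo. The 5 libraries at 0 had FPKM sums from 475902 to 575171. Placebo libraries 2, 4, 10 and 12, with sums from 478675 to 556113, stood at 0.0403 to 0.104 scaled FPKM. The part of the FPKM sum in the values at 0 was not tested. In the fit with no minimum the log2 fold change was -0.49 (-1.11 to 0.12, adjusted p = 0.642), and -0.14 (-0.40 to 0.12, adjusted p = 0.854) in the second model. At levels near the pseudocount of 0.5 the log2 scale is compressed, so these values understate a difference.

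**Figure D3:**
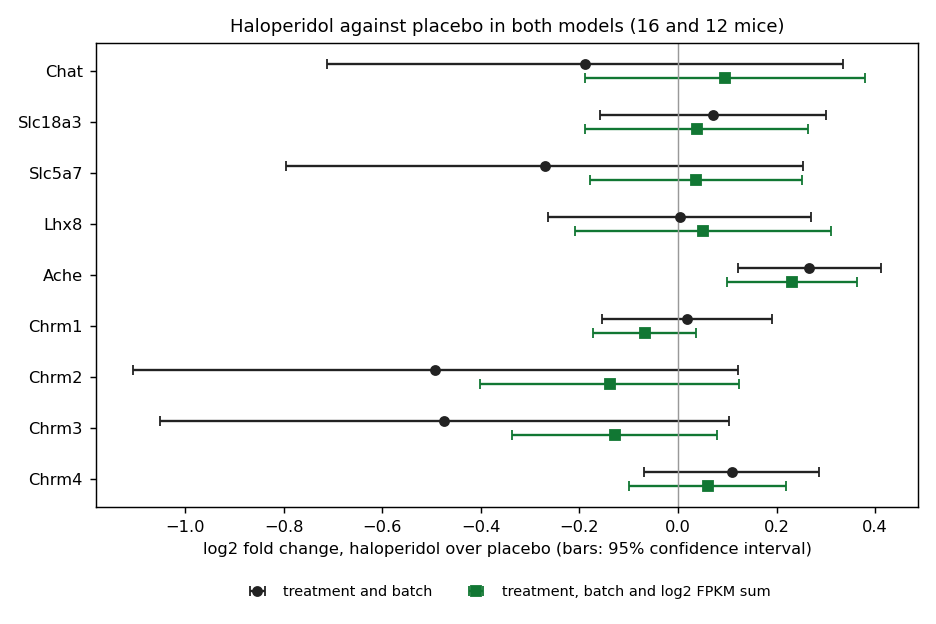
Log2 fold change of haloperidol over placebo for each gene, in the model with treatment and batch (circles) and with log2 FPKM sum added (squares), with 95% confidence intervals. Ache is the one gene whose intervals lie above 0 in both, at 0.27 and 0.23, and the intervals of Chat, Slc5a7, Chrm2 and Chrm3 narrow in the second model.

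A dependence of the haloperidol difference on batch was tested directly. The treatment-by-batch term passed for 0 of 9 members, with 0 at an unadjusted p under 0.05, and for 0% of 12760 genes by limma, with 206 at an unadjusted p under 0.05 (also 0% in the fit with no minimum). Between batches, with treatment in the model, 0 of 9 members passed with 3 at an unadjusted p under 0.05, and 0.408% of genes did (0.213% with no minimum). The difference of batch 2 from batch 1 was nearest to the threshold for Chrm3, at 0.95 (0.37 to 1.52, adjusted p = 0.108; 0.42 and adjusted p = 0.0507 with the FPKM sum added), and for Slc18a3, at -0.31 (-0.54 to -0.08, adjusted p = 0.158). The batches hold different mice, so batch and mice cannot be told apart.

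The largest differences between mice followed the FPKM sum of the library. With treatment and batch in the model, 7 of 9 members had a slope on log2 FPKM sum that passed in limma, 4 lower and 3 higher, where 82.0% of the 12760 genes did (40.9% higher, 41.1% lower; 61.8% in the fit with no minimum). The members' share is thus near the background. For each doubling of the sum, the log2 level changed by -3.25 for Chat, -3.52 for Slc5a7, -4.06 for Chrm2 and -3.96 for Chrm3, and Chat, Slc5a7 and Chrm3 lie below percentile 3 of the slopes (2.44, 1.98 and 1.41). A sum higher by 10% went with 0.734 times the level of Chat and 0.686 times that of Chrm3. Slopes of the other members were smaller in size: 0.99 for Chrm1 (adjusted p = 2.53e-07), 0.56 for Chrm4 (adjusted p = 0.0189), 0.41 for Ache (adjusted p = 0.0351), 0.37 for Slc18a3 (adjusted p = 0.268) and -0.54 for Lhx8 (adjusted p = 0.153). The sign of a slope rests on the scaling, since with libraries rescaled to a common sum the median slope of all genes was -1.10 in place of 0.02. Relative to that median, Chat stood at -3.27 with the main scaling and -3.09 with the common sum, and Chrm1 at 0.96 and 0.89. With no such centring Slc18a3, Ache, Chrm1 and Chrm4 turned negative with the common sum, and Ache did with quantile normalization (-0.10).

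**Figure D4:**
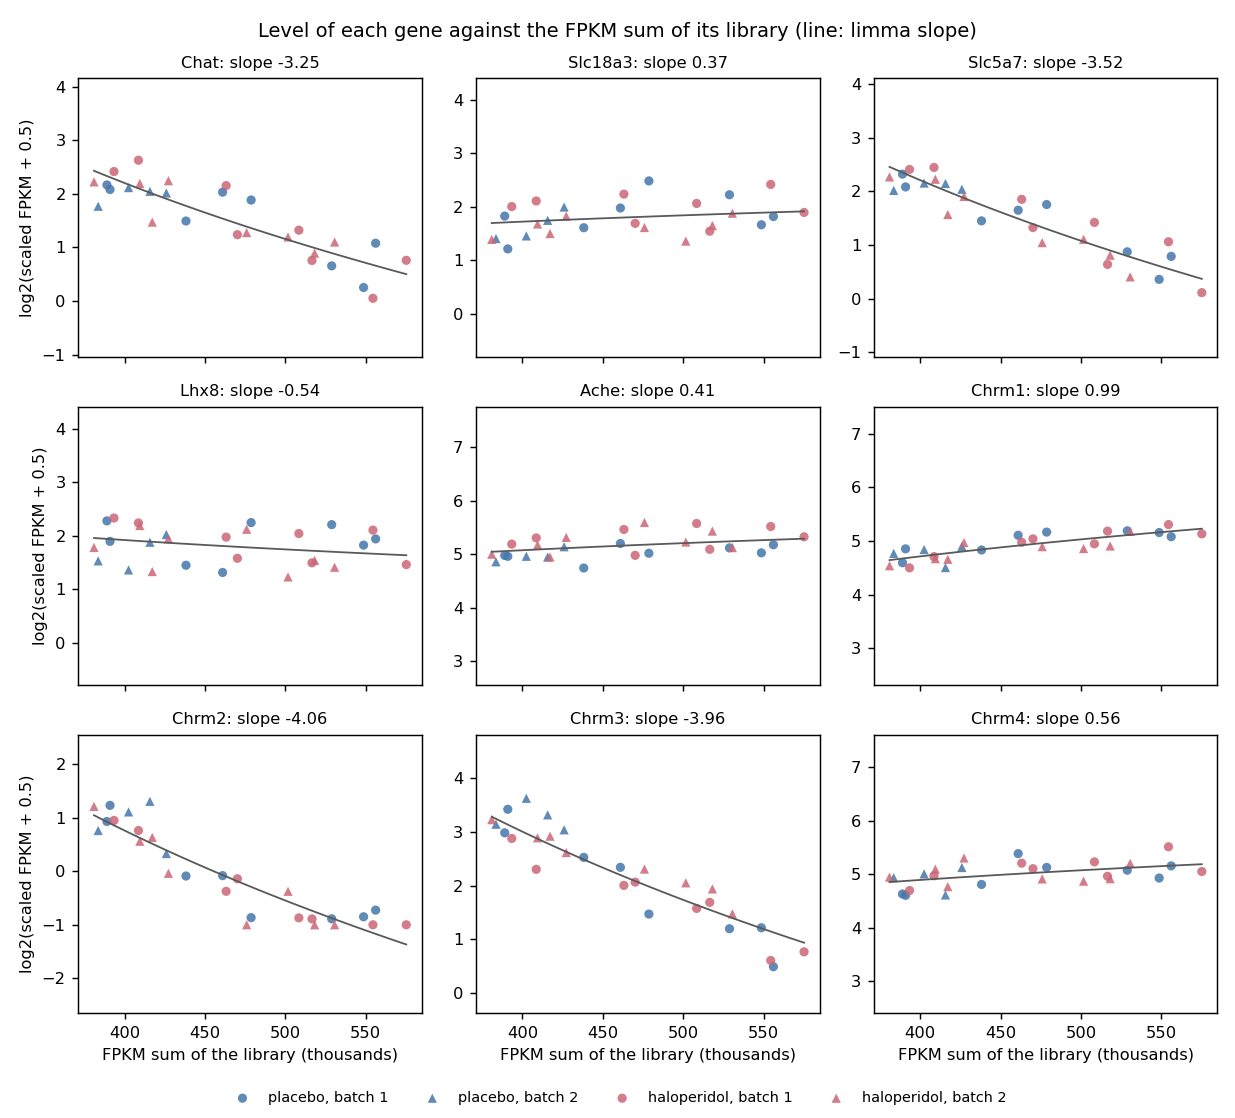
Log2(scaled FPKM + 0.5) of each gene against the FPKM sum of its library, with points coloured by treatment and shaped by batch, and lines showing the fitted slope. All panels span the same height on the log2 scale, so Chat, Slc5a7, Chrm2 and Chrm3 can be seen to fall, with slopes from -3.25 to -4.06 per doubling, while Slc18a3 (0.37) and Lhx8 (-0.54) stay nearly level.

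Chat and Slc18a3, nested at 1 locus, had slopes of -3.25 and 0.37. The ratio of Chat to Slc18a3 ran from 0.111 to 1.96 among haloperidol mice and from 0.258 to 2.05 among placebo mice. The slope of the log2 ratio, -3.61, is the difference of their slopes and is given as a description. After the FPKM sum was also subtracted, 11.8% of the residual variance of Chrm3 was left, 15.01% of that of Slc5a7, 27.3% of that of Chat and 33.8% of that of Chrm1, against 94.9% for Slc18a3, 91.9% for Lhx8, 83.2% for Ache and 80.0% for Chrm4. The RNA integrity number in the labels moved with log2 FPKM sum (r = -0.74 over 28 libraries, treatment and batch subtracted), and the members' slopes on it had the opposite signs. Per unit of that number the log2 level was higher by 0.92 for Chat, 1.10 for Slc5a7, 1.26 for Chrm2 and 1.10 for Chrm3, and lower for Chrm1 (-0.37) and Chrm4 (-0.23), all past the threshold that 70.1% of genes passed (34.8% higher, 35.2% lower; 50.5% in the fit with no minimum). Slc18a3, Lhx8 and Ache did not pass. Log2 relative depth had r = -0.41 with log2 FPKM sum, treatment and batch subtracted, and its relation to RNA integrity was not computed. The separate parts of RNA integrity, relative depth and the FPKM sum were not tested.

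Across genes, which are not independent replicates, the slope on the FPKM sum went with the GC content of the transcript (Spearman's rho = 0.519 over 12607 genes matched to a GENCODE transcript) and with the deposited exon length (rho = -0.663). The members span that range. Slc18a3 has 61.2% GC in 2414 exon bases and Ache 60.4% in 2183, while Slc5a7 has 40.8% in 5180. Chrm1, with the longest deposited models of the members (6194 and 6286 bases), had the highest slope of them, 0.99. The GENCODE transcript matched to the model of 6194 bases has 4159. Chrm3, with 50.2% GC (percentile 46.5), had a slope of -3.96. Chat does not sit at an extreme of either, with 54.3% GC (percentile 68.8) and 2810 bases, where the median gene has 50.8% and 2765. The deposited models of Chrm2 and Chrm3 hold 2036 and 3168 exon bases, fewer than the 5676 and 4336 of the matched GENCODE transcripts.

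Whether the members varied together over mice was asked with Pearson's r of the log2 levels after subtracting treatment and batch, over 36 pairs and 28 libraries, with permutation p-values adjusted over the pairs. Past an adjusted p of 0.05 were 19 pairs, 12 with r above 0 and 7 below. With the FPKM sum also subtracted, 12 pairs passed, 10 above and 2 below, and 6 of these pairs had passed in both with the same sign. The share among pairs of all genes tested was not computed, and 82.0% of those genes had a slope on the FPKM sum. The counts are thus a description and not a trait of the members.

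Chat and Slc5a7 varied together, with r = 0.89 (rho = 0.93, permutation adjusted p = 4.5e-05), r = 0.93 without the 2 libraries farthest from the median, and r = 0.89 and 0.92 within batches 1 and 2. After subtracting the FPKM sum r was 0.52 (adjusted p = 0.0209). Chat and Slc18a3, nested at 1 locus, had r = 0.03 (rho = 0.13, permutation adjusted p = 0.870), 0.14 without the 2 farthest libraries, and 0.01 and 0.10 within batches. Their r was 0.44 with the FPKM sum subtracted (adjusted p = 0.0519), just short of the threshold. Slc18a3 and Slc5a7 went from r = 0.06 (rho = 0.14, permutation adjusted p = 0.794; 0.14 without the 2 farthest, 0.13 and -0.11 within batches) to 0.72 (adjusted p = 0.00108).

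Of the 10 pairs among Chat, Slc18a3, Slc5a7, Lhx8 and Ache, 8 had r above 0 before the FPKM sum was subtracted, 4 of them past the threshold, and 10 had r above 0 after it, 7 past the threshold. For these counts too, no share over pairs of all genes was computed. Slc18a3 with Lhx8 had r = 0.60 (0.49 before subtraction), Slc5a7 with Ache 0.60 (-0.17 before), Lhx8 with Ache 0.55 (0.36 before), Slc5a7 with Lhx8 0.54 (0.46 before) and Slc18a3 with Ache 0.46 (0.50 before), all past the threshold after subtraction (permutation adjusted p from 0.00846 to 0.0449). Chat with Lhx8, at 0.18, and Chat with Ache, at 0.40, did not pass. Chrm4 had values of the same size with Slc18a3 (0.54) and Slc5a7 (0.52), both past the threshold. Over the same residuals the spiny projection marker level went with Chat (0.64), Slc18a3 (0.77), Slc5a7 (0.77), Chrm4 (0.79) and Ache (0.47) and against Chrm3 (-0.47). The cortical excitatory level went against Slc5a7 (-0.76), Slc18a3 (-0.69), Lhx8 (-0.59), Chat (-0.49) and Ache (-0.46). The part of either in these pairs was not tested.

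Among the receptors, Chrm1 and Chrm4 varied together with r = 0.71 (rho = 0.68, permutation adjusted p = 0.000144), 0.61 without the 2 farthest libraries, 0.74 and 0.64 within batches, and 0.67 with the FPKM sum subtracted (adjusted p = 0.00234). Chrm2 and Chrm3 had r = 0.88 (rho = 0.91, permutation adjusted p = 4.5e-05), 0.86 without the 2 farthest and 0.89 and 0.91 within batches. That value was 0.14 with the FPKM sum subtracted (adjusted p = 0.662). Chrm1 went against Chrm2, with r = -0.85 (rho = -0.81, permutation adjusted p = 4.5e-05), -0.81 without the 2 farthest, -0.86 and -0.82 within batches, and -0.44 (adjusted p = 0.0531) after subtraction.

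**Figure D5:**
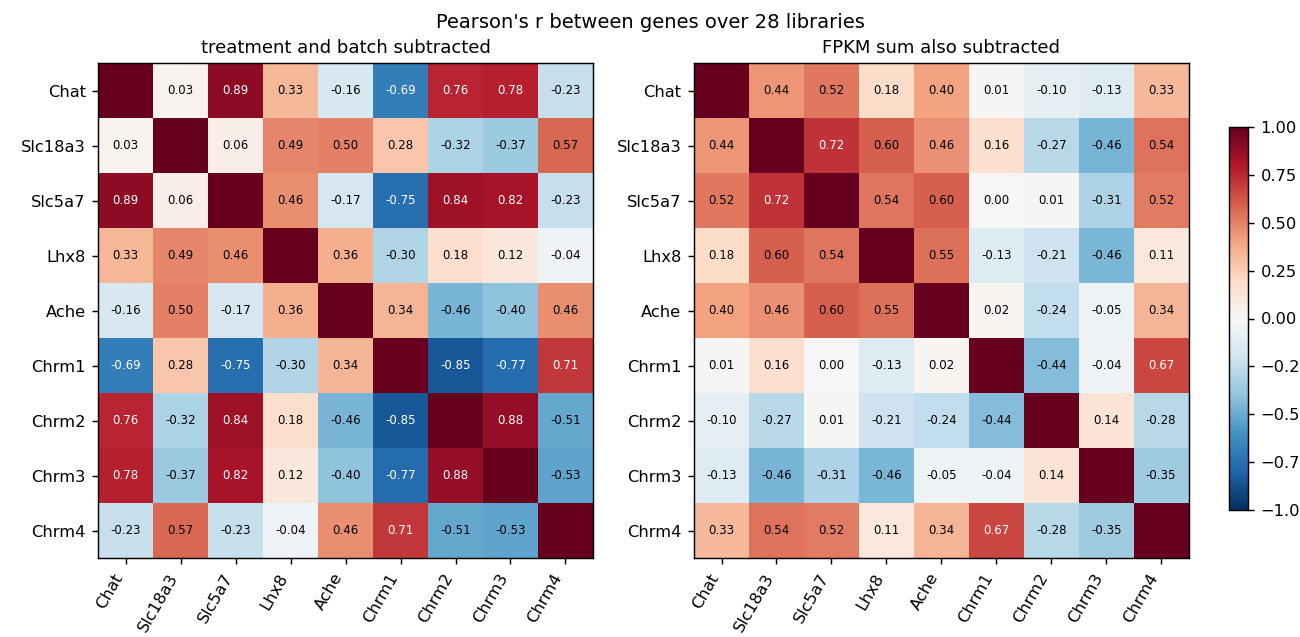
Pearson's r between the log2 levels of the 9 genes over 28 libraries, with treatment and batch subtracted (left) and with the FPKM sum also subtracted (right), from -1 in blue to 1 in red. On the left Chat, Slc5a7, Chrm2 and Chrm3 form a block of r from 0.76 to 0.89, and on the right that block is gone except for Chat with Slc5a7 (0.52), while Slc18a3 with Slc5a7 is 0.72.

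A dissection can hold different shares of neighbouring tissue, and marker levels moved with several members. Over 45 relations of a member to a marker list, permutation p-values adjusted together, Slc18a3 went with the mean log2 level of spiny projection markers at r = 0.64 (rho = 0.65, adjusted p = 0.00158; 0.51 without the 2 farthest libraries, 0.71 and 0.43 within batches). It went against that of cortical excitatory markers at r = -0.71 (rho = -0.67, adjusted p = 0.00045; -0.76 without the 2 farthest, -0.77 and -0.47 within batches). Lhx8 (r = -0.49, adjusted p = 0.0303), Ache (r = -0.50, adjusted p = 0.0247) and Chrm4 (r = -0.45, adjusted p = 0.0445) also went against the cortical list, while Chrm3 went with it at r = 0.47 (adjusted p = 0.0387), or 0.76 with the FPKM sum subtracted. Chat (r = 0.59, adjusted p = 0.00574), Slc5a7 (r = 0.58, adjusted p = 0.0069) and Chrm4 (r = 0.52, adjusted p = 0.0166) went with the spiny projection list too. Relations of the basal forebrain, septal and pallidal list passed for 6 members. Chrm2 (r = 0.76), Slc5a7 (0.67), Chrm3 (0.67) and Chat (0.56) went with it, and Chrm1 (-0.84) and Chrm4 (-0.61) against it (permutation adjusted p from 0.000225 to 0.00774). With the FPKM sum subtracted r was -0.67 for Chrm1, -0.47 for Chrm4 and 0.44 for Chrm2, which still passed, and 0.13 for Slc5a7, 0.10 for Chrm3 and -0.07 for Chat, which did not. The part of tissue share in the members' differences was not tested.

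Genes whose log2 level over the 28 libraries was most like a member's, by Pearson's r with treatment and batch subtracted, are given as a description among 12752 genes. For Chat they were Pbx3 (r = 0.95), Itgam, Tgfa, Pde7b and Gclc (each 0.93), and 92 genes had r over 0.9. For Slc5a7 they included Pde10a and Cyld (each 0.97) with 745 genes over 0.9, and for Chrm3 Atp1b1, Napg and Atp6v1a (each 0.99) with 1171. Slc18a3 was most like Pde1b (0.79), Ptpn5 (0.78) and Gng7 (0.77), and had 0 genes over 0.9. With the FPKM sum also subtracted, Chat, Slc5a7 and Chrm3 had 0 genes over 0.9 as well. The r was then 0.79 for Chat with Pbx3, 0.80 for Slc5a7 with Pde10a, 0.90 for Chrm3 with Atp1b1 and 0.78 for Slc18a3 with Pde1b. Lhx8 was most like Unc13c (0.66), Gpr101 (0.65) and Isl1 (0.64), the last a LIM homeodomain factor of the same neurons. Ache was most like Ecel1 (0.87), Ece2 (0.78) and Cygb (0.75). Chrm1 was most like Phyhip, Fscn1 (each 0.95) and Cyp46a1 (0.94), and Chrm4 most like Camk2b (0.94), Cd4 and Actn2 (each 0.89). All points of such an r share a library, its depth and its FPKM sum.

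The other genes of acetylcholine signalling were counted from 7 lists, which were drawn up with earlier results of these data known. In every list 0 genes passed in either model, and the median log2 fold change over the genes tested was 0.23 for 2 breakdown genes, 0.02 for 3 muscarinic receptors, -0.08 for 3 nicotinic subunits and -0.01 for 7 nicotinic partners. Of 7 genes for synthesis, storage and choline uptake, the median log2 fold change was -0.09, beside 0.00 over all genes tested, and 0.04 with the FPKM sum in the model. The smallest p-values in that list were those of the choline transporter-like Slc44a1, at -0.20 (limma adjusted p = 0.565), and the choline kinases Chkb (0.16) and Chka (0.08). Of the breakdown genes, Prima1, the membrane anchor of acetylcholinesterase in brain, was tested beside Ache. Prima1 stood at 9.17 ± 1.78 scaled FPKM (n = 16) under haloperidol and 8.05 ± 2.15 (n = 12) under placebo, a log2 fold change of 0.19 (limma adjusted p = 0.565). The secreted esterase gene Bche and the collagen tail gene Colq had means of 0.651 and 0.645 scaled FPKM, under the minimum for testing, as did the M5 receptor gene Chrm5 at 0.170.

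Nicotinic receptor genes were sparse in this tissue. Of 16 subunit genes, 3 were tested: Chrnb2 at 11.3 and Chrna4 at 6.92 scaled FPKM, the subunits of the main high-affinity brain receptor, and Chrna7 at 1.02. Their log2 fold changes were 0.02, -0.08 and -0.48 (limma adjusted p = 0.731, 0.622 and 0.565), and Chrnd and Chrng, the muscle subunits, were listed at 0 in every library. Among 7 partners of these receptors the smallest p belonged to Lypd1, at 0.25 (limma adjusted p = 0.565), then Lypd6 (-0.20) and Ric3 (-0.12), a chaperone of receptor assembly.

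Of 14 genes for G proteins and effectors of muscarinic receptors, 2 had a log2 fold change above 0 and the median was -0.20, or -0.07 with the FPKM sum in the model, where 4 were above 0. The leading members were Gnai1 (-0.19), Gnai2 (0.18) and Kcnj6, a G protein-gated potassium channel (-0.41), with limma adjusted p = 0.565 for each. In this list 11 of 14 genes had a slope on the FPKM sum called lower, with a median of -1.89, where 41.1% of all genes tested were called lower and 82.0% either way. Of 8 further markers of cholinergic interneurons that were tested, 6 lay above 0 in the first model, with a median of 0.06, and 8 in the second, with a median of 0.10. The median over all 12760 genes tested was 0.0042 in the first model and -0.0049 in the second. The share of all genes above 0 was not computed, so the counts above 0 in both lists are a description. Among the further markers with the smallest p-values were Ecel1 (0.21) and Ngfr (0.17), neither past the threshold. Ngfr is also in the basal forebrain, septal and pallidal list, so it does not mark striatal interneurons alone. Ecel1 was also among the 3 genes most like Ache over mice when the FPKM sum was subtracted (r = 0.84).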

How the data were processed

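RNA from striatum of 28 mice was measured by RNA-seq. Reads were aligned with TopHat2 2.0.6 to mm9 and quantified with Cufflinks (its version is not stated there), per the submitters' processing notes. The deposited values are FPKM for 30563 RefSeq transcripts per library, by the authors. Gene FPKM was summed over transcripts and divided by a median-of-ratios factor for each library. Genes of mean FPKM at least 1 were tested on log2(scaled FPKM + 0.5) with limma 3.58.1 (eBayes with trend, 2-sided, Benjamini-Hochberg over all genes tested) in R 4.3.3. The log2 scale with this pseudocount understates changes of low genes. The fit and the correlations were checked on simulated data. Correlations used 100000 permutations in Python 3.11.15 with NumPy 2.4.6. The members, gene lists and tests were chosen with earlier results of these data known. Named genes were the members, up to 3 of each pathway list with the smallest p in the first model, and those most like a member (5 for Chat, 3 for each other), and some that the rule names are not reported here. No identical libraries were found (0 pairs). Alternatives covered scaling, filters, covariates, batches and left-out libraries. Promoters came from RefSeq (GRCm38.p6), and GC content from GENCODE transcripts.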

Additional observations from a re-analysis of the deposited data

How the results depend on the processing

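No member passed the threshold for haloperidol against placebo under any alternative that gave it a value (17 for Ache, Chrm1, Chrm3 and Chrm4, 16 for Chat, Slc18a3, Slc5a7 and Lhx8, 15 for Chrm2) or with any of 28 libraries left out. Genes past it in the model with treatment and batch, 1 as reported, numbered 0 with a common sum, with no batch term, in either batch alone and with the cortical marker covariate, 2 with the spiny projection covariate, 4 without libraries of RNA integrity under 7.5, 5 with RNA integrity as a covariate and 7 with array weights. With the FPKM sum, 7 as reported, they numbered 4 at a minimum of 5 FPKM and with quantile normalization, 3 without sums over 540000, 16 with array weights, 33 with the spiny projection covariate and 0 in each batch alone. Both marker covariates were chosen after seeing the data. With 1 library left out the counts ran from 0 (without placebo 22) to 4 (without placebo 12), and from 3 (without haloperidol 13) to 12 (without placebo 2). The causes were not tested. Batch alone means fewer samples.

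Estimates near 0 changed sign. In the model with treatment and batch, Slc18a3 was -0.00552 with a common sum, -0.0385 in batch 2 and -0.0408 with the cortical covariate. Lhx8 was -0.0694 with a common sum, -0.0306 without batch, -0.0055 with RNA integrity, -0.00469 in batch 2, and -0.0863 and -0.0159 with the cortical and spiny projection covariates. Chrm1 was -0.0714 with a common sum, -0.0189 with quantile normalization, -0.0121 without batch, -0.035 from its highest transcript and -0.0236 in batch 1. With 1 library left out Lhx8 ran from -0.0451 to 0.0421 and Chrm1 from -0.0162 to 0.0596. In the model with the FPKM sum, Slc18a3 was -0.0212 without batch, -0.0461 without sums over 540000, -0.12 in batch 2, and -0.0484 and -0.0276 with the cortical and spiny projection covariates. Slc5a7 was -0.00849 without batch, -0.12 in batch 2, and -0.0537 and -0.0257 with those covariates. Lhx8 was -0.0126 without batch and -0.0347 with the cortical covariate, and Chat was -0.00308 in batch 2. Leaving out 1 library, Slc18a3 ran from -0.000512 to 0.0899 and Slc5a7 from -0.00226 to 0.0714. In the model with treatment and batch, Chat ran from -0.30 to -0.0809 (without haloperidol 19) and Slc5a7 from -0.37 to -0.17 (without haloperidol 3) with 1 library left out, and from -0.41 to -0.0397 and -0.67 to -0.0020 over the alternatives.

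Slopes on the FPKM sum of Chat, Slc5a7, Chrm2 and Chrm3 stayed negative and past the threshold in every alternative run. With a common sum, those of Slc18a3 (-0.67), Ache (-0.79), Chrm1 (-0.21) and Chrm4 (-0.64) changed sign and Lhx8 (-1.59) passed. Slc18a3 passed with quantile normalization (0.81) and with the spiny projection covariate (0.77), and Lhx8 with the cortical covariate (-0.79). Ache was -0.10 with quantile normalization and no longer passed with deposited FPKM (0.19), without sums over 540000 (0.43), in batch 1 (0.34), in batch 2 (0.65) or with the cortical covariate (0.32). Chrm4 no longer passed with quantile normalization (0.11), deposited FPKM (0.34), RNA integrity (0.32) or in batch 2 (0.034). With 1 library left out Ache ran from 0.37 (without haloperidol 25) to 0.49, and Chrm4 from 0.46 (without haloperidol 17) to 0.63, and neither passed at the lower end.

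With the FPKM sum added, the batch-by-treatment term turned for Chat (0.0276), Lhx8 (0.0547) and Chrm1 (-0.0171), and the batch difference for Chat (-0.13), Slc5a7 (-0.20) and Chrm4 (0.00396), with 119 genes past the threshold in place of 52. Of the correlations, 12 pairs passed in place of 19. Those that changed sign were Chat with Ache (0.40), Chrm1 (0.00962), Chrm2 (-0.0994), Chrm3 (-0.13) and Chrm4 (0.33), Slc5a7 with Ache (0.60), Chrm3 (-0.31) and Chrm4 (0.52), and Lhx8 with Chrm2 (-0.21), Chrm3 (-0.46) and Chrm4 (0.11, or 0.0716 without the 2 farthest libraries). No paired analysis was possible because the mouse numbers of haloperidol and placebo groups are not shared.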

Other observations

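Limits that touch these genes are few in kind. Chat, Slc18a3, Slc5a7 and Lhx8 were all near 3 scaled FPKM, with median interval half-widths from 18.1% to 29.3%, and Chrm2 was listed at 0 in 5 libraries. Read counts are not in the values used here, so counting error could not be separated from differences between mice. Batch 2 held 4 placebo mice. The FPKM sum varied within both groups, from 380952 to 575171 under haloperidol and from 383563 to 556113 under placebo.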
